A study of Mus musculus with 12 samples.

Results

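ATP-binding cassette (ABC) proteins were followed in sorted bone stroma cells of mice with and without breast cancer growing in their long bones. Members were chosen by name: all genes measured with a symbol of the form Abc, a subfamily letter from a to g and a number, which gave 48 of the 19937 genes with a probe set of their own. The only measured value used was the mean intensity over the 12 arrays, by which 1 probe set was selected for Abcb5, which had 2. Of the 48 members, 29 were bright enough to be tested and 19 were not.

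ABC transporters use the energy of ATP to carry substrates across membranes. Some are efflux pumps that remove drugs and metabolites from cells, among them P-glycoprotein, which in rodents is encoded by the gene pair Abcb1a and Abcb1b, and the breast cancer resistance protein Abcg2. P-glycoprotein and Abcg2 are best known in vessel walls from the blood-brain barrier, where endothelial cells use them to keep drugs out of the tissue. Others export cholesterol and phospholipid to lipoproteins, serve peroxisomes, mitochondria or lysosomes, or form the regulatory subunits of potassium channels. Members of subfamilies E and F move nothing across membranes and act in translation.

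The mice were female and of the immunodeficient NOD SCID strain, which lacks functional T and B lymphocytes. Tumor-bearing mice had received 200000 MDA-MB231 scp1833 cells, a bone-tropic derivative of a human breast cancer line, into the heart, and tumor growth was followed by bioluminescence for about 2 weeks. Tumor-free mice were the controls, and no label says whether they had a mock injection. From the digested long bones of both, cells without GFP, TR119 or CD45 were sorted into osteoblasts (CD51+, SCA1-, CD31-) and endothelial cells (SCA1+, CD31+). This gave 4 groups of 3 arrays each, written below as tumor-free or tumor-bearing osteoblasts and endothelial cells, always in the order of replicates 1, 2 and 3. The labels call the replicates biological but do not say whether 1 array holds 1 mouse or a pool, so the p-values reflect only how far these samples spread. A single tumor line was used, and its effect cannot be told apart from that of tumor growth in general.

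Values are the deposited log2 intensities of Affymetrix probe sets, from 1.55 to 12.9, so a difference of 1 is a doubling. Array medians lay between 5.21 and 5.41. The sorted labels were checked against marker genes: the mean over 8 endothelial markers was 10.14 to 10.28 and 9.94 to 10.07 in the tumor-free and tumor-bearing endothelial groups, against 4.82 to 5.88 in osteoblasts. Over the 8 measured of 12 osteoblast markers it was 8.82 to 10.22 in osteoblasts against 5.66 to 6.07 in endothelial cells. Markers of other stromal cells were also bright in the osteoblast groups. The chondrocyte mean was 8.49 without and 10.40 with tumor, and the fibroblast and reticular mean was 9.68 and 10.12, beside 9.58 and 9.76 for osteoblast markers. The part of such cells in the osteoblast groups was not tested. Tumor-free osteoblasts stood apart in their spread, with correlations between arrays of 0.867 to 0.908 against 0.946 to 0.969 within the other groups. On those 3 arrays the mean over 8 monocyte and macrophage markers was 5.21, 8.93 and 8.67, and that over 8 chondrocyte markers was 10.02, 8.71 and 6.75. The median SD of the tested members was 0.305 there, against 0.235 in tumor-bearing osteoblasts, 0.15 in tumor-free and 0.157 in tumor-bearing endothelial cells.

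Abcb1b was the member that passed the test in the endothelial tumor comparison. It stands on mouse chromosome 5 (build GRCm38.p6) between Abcb1a and the phospholipid transporter Abcb4, with no other protein-coding gene between them, and the start regions of the 3 neighbours are shown for that reason. Each is 300 bases on the plus strand from RefSeq, covering 250 bases before to 50 after the annotated start, at chr5:8566841-8567140 for Abcb1a, chr5:8797897-8798196 for Abcb1b and chr5:8893471-8893770 for Abcb4. Capitals mark matches to any of 5 searched motifs.
Abcb1a: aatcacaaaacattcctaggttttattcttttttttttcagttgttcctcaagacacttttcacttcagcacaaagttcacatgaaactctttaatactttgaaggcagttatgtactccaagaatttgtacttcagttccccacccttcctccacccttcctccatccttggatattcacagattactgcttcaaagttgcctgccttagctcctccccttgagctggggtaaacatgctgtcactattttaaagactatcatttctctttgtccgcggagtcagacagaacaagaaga
Abcb1b: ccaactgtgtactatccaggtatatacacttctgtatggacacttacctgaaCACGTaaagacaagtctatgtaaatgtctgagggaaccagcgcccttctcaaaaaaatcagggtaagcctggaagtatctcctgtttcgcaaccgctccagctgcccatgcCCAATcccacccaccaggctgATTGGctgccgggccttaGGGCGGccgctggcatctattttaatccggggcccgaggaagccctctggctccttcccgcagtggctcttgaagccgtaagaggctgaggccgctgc
Abcb4: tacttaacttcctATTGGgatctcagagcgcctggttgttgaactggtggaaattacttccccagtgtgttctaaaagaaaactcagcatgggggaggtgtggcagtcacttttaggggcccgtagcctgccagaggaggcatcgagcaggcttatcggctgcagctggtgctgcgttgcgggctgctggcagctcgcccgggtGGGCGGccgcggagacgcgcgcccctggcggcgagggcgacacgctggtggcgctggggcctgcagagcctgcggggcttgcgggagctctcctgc
The motifs, searched on both strands, were the CCAAT box (CCAAT), the GC box (GGGCGG), the AP-1 site (TGANTCA), the TATA box (TATAAA) and the core of the hypoxia response element (ACGTG), and no matches overlapped in the windows shown. The Abcb1a window held none of them and had a GC content of 40.3%. In the Abcb1b window, with 55.0% GC, there were 2 CCAAT matches, 1 GC box and 1 ACGTG, whereas the Abcb4 window, with 64.0% GC, held 1 CCAAT match and 1 GC box. Such matches are common: of all 27025 gene windows of this length, 37.9% held CCAAT, 35.9% GGGCGG, 7.93% TGANTCA, 14.2% TATAAA and 19.7% ACGTG. Among the 38 members with a window the shares were 36.8%, 44.7%, 0%, 15.8% and 26.3% in the same order.

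Abcb1b was higher in tumor-bearing than in tumor-free endothelial cells. Its intensity was 4.03, 4.0 and 5.05 in tumor-free osteoblasts, 3.95, 4.14 and 3.81 in tumor-bearing osteoblasts, 4.36, 4.0 and 3.80 in tumor-free endothelial cells and 6.00, 6.31 and 6.13 in tumor-bearing endothelial cells. All 3 arrays of tumor-bearing endothelial cells lay above all 9 others, the nearest being replicate 3 of tumor-free osteoblasts. The difference between the endothelial groups was 2.09 ± 0.27 (SE, n = 3 and 3), with an adjusted p of 0.0458 in limma after Benjamini-Hochberg adjustment over all 12430 genes tested. It was 1 of 29 tested members past the threshold of 0.05 in this comparison, in which 0.0241% of all tested genes passed, that is 3 genes. In osteoblasts the tumor difference of Abcb1b was -0.39 ± 0.27 (limma, adjusted p = 0.381), with a 95% interval of -0.98 to 0.20. The difference of these tumor differences, endothelial minus osteoblast, was 2.48 ± 0.38 (limma, adjusted p = 0.0329), and Abcb1b was again 1 of 29 members past the threshold, against 0.209% of all tested genes. In bulk samples such as these, fewer cells of a type and less RNA per cell cannot be told apart.

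The Abcb1b calls stood close to the threshold. This probe set exceeded its arrays' medians on 3 arrays of 12, those of tumor-bearing endothelial cells, so it entered the test only through the group in which it was high, and its p-values and its place among the called members are a description rather than support. In tumor-free endothelial cells, at 4.06 ± 0.28 (SD, n = 3), it lay below the array medians, so no fold is given. When 1 array was left out at a time, the endothelial difference stayed between 1.96 and 2.24 but passed the threshold in 2 of 12 fits, those without tumor-free endothelial replicate 1 or tumor-free osteoblast replicate 3. With another array left out the adjusted p was 0.0556 to 0.35 in limma. The call was also lost with quantile normalization, centred arrays, no filter on dim genes or an intensity trend (limma, adjusted p = 0.0539 to 0.0661). The difference of the tumor differences passed in 4 of 12 such fits and lost its call without replicate 1, 2 or 3 of tumor-bearing osteoblasts, replicate 1, 2 or 3 of tumor-bearing endothelial cells or replicate 2 or 3 of tumor-free endothelial cells (adjusted p up to 0.118 in limma). Tumor-bearing endothelial cells were also higher in Abcb1b than tumor-bearing osteoblasts, by 2.18 ± 0.27 (limma, adjusted p = 0.000234), a comparison in which the same filter applies. Without tumor the same cell type difference was -0.30 ± 0.27 (limma, adjusted p = 0.395).

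Abcb1a, the other gene of the pair and the form best known in mouse vessel walls, was higher in endothelial cells than in osteoblasts in both conditions. Its intensity was 5.60, 5.33 and 5.82 in tumor-free osteoblasts, 5.78, 5.89 and 5.44 in tumor-bearing osteoblasts, 7.75, 6.35 and 6.48 in tumor-free endothelial cells and 9.07, 8.12 and 8.73 in tumor-bearing endothelial cells. Every endothelial array lay above every osteoblast array, and the 3 tumor-bearing endothelial arrays lay above the tumor-free ones, of which replicate 1 was the highest. Endothelial cells exceeded osteoblasts by 1.28 ± 0.36 (2.43-fold; limma, adjusted p = 0.0222) without tumor and by 2.93 ± 0.36 (7.64-fold; limma, adjusted p = 0.000221) with tumor. The tumor-free difference lost its call without replicate 2 of tumor-free osteoblasts or replicate 1 of tumor-free endothelial cells (adjusted p up to 0.0583 in limma), and also with array weights, with weights per group and when only the compared groups were fitted (up to 0.0972). Between the endothelial groups Abcb1a differed by 1.78 ± 0.36, or 3.42-fold, with an adjusted p of 0.174 in limma, so it did not pass. Without tumor-free endothelial replicate 1 that difference was 2.22 (limma, adjusted p = 0.0101) and passed. In osteoblasts the tumor difference was 0.12 ± 0.36, with a 95% interval of -0.67 to 0.91, and the difference of the tumor differences was 1.65 ± 0.51 (limma, adjusted p = 0.176).

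The 2 genes of the pair are close in sequence, and the probe sequences were not used here, so how far each probe set also reads the other transcript was not tested. Where no tumor was present, Abcb1a was 1.28 higher in endothelial cells, while for Abcb1b the difference was -0.30. Abcb1b lay below the array medians on all of those arrays, so its difference there cannot show a pattern unlike that of Abcb1a. No test compared the 2 genes. Abcb4, the third gene of the group and a phosphatidylcholine transporter of bile, was not tested, with values of 3.97 to 5.14 over all 12 arrays. Other measures moved with the tumor-free endothelial arrays. The mean over 10 immediate early genes, which respond to the handling of tissue, was 9.63, 8.71 and 8.61 on the tumor-free and 9.66, 9.67 and 9.60 on the tumor-bearing endothelial arrays. Over 8 pericyte and smooth muscle markers it was 7.40, 6.74 and 6.64 against 7.58, 7.62 and 7.28, and over 6 fibroblast and reticular markers 6.54, 5.83 and 5.68 against 6.81, 6.82 and 6.52. Tumor-free endothelial replicate 1 lay within the range of the tumor-bearing arrays in all 3 lists, and Abcb1b there was 4.36. The 6 pan-hematopoietic markers averaged 4.40 to 4.66 and 4.45 to 4.86 in the tumor-free and tumor-bearing endothelial groups. The part of these lists in the Abcb1a and Abcb1b differences was not tested.

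**Figure D1:**
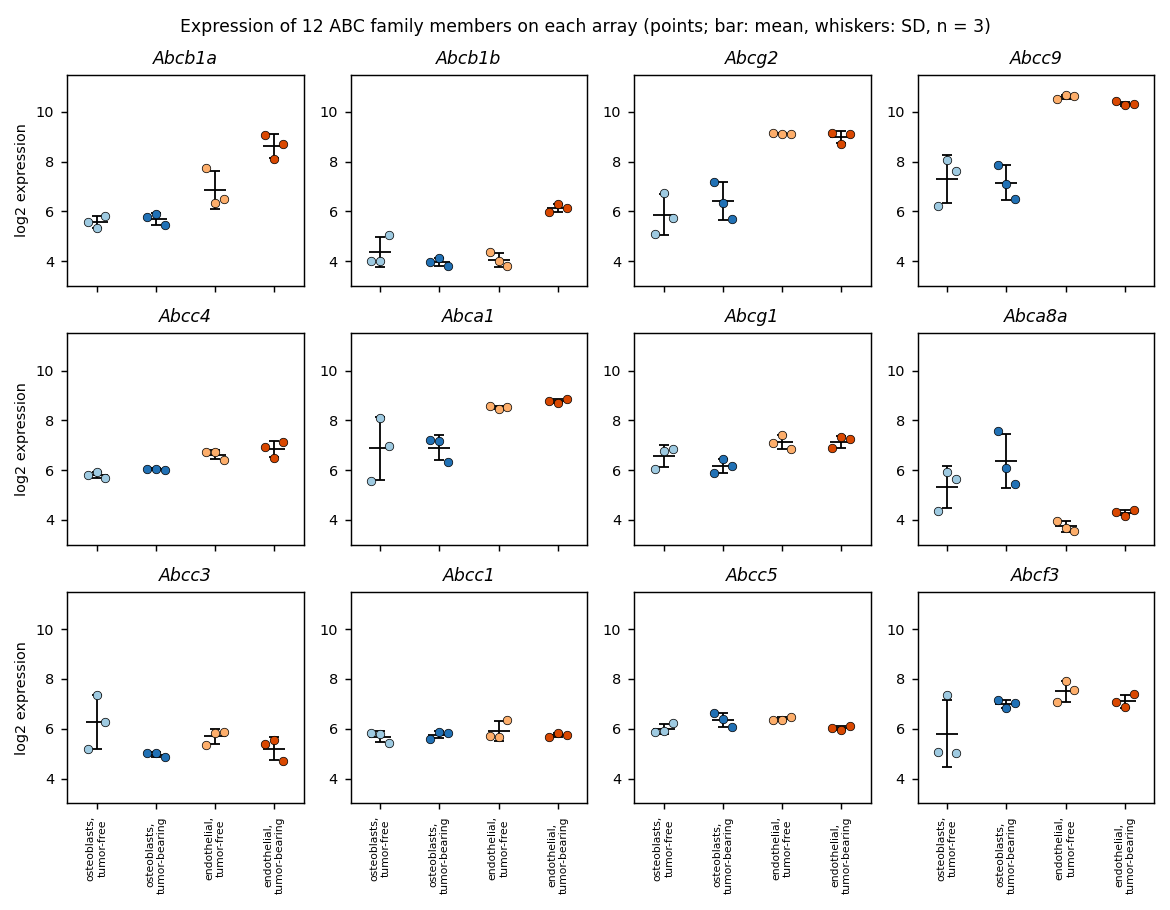
Log2 intensity (vertical axis) of 12 family members on each of the 12 arrays, 1 panel a gene, with the 4 groups along the horizontal axis, points for arrays, bars for group means and whiskers for SD (n = 3). Abcb1b is near 6 only in tumor-bearing endothelial cells, at 6.00 to 6.31, while Abcg2 and Abcc9 are high in both endothelial groups.

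Among the other efflux pumps, Abcg2 had the larger cell type differences. Its intensity was 5.10, 6.75 and 5.75 in tumor-free osteoblasts, 7.20, 6.35 and 5.70 in tumor-bearing osteoblasts, 9.14, 9.11 and 9.10 in tumor-free endothelial cells and 9.15, 8.70 and 9.11 in tumor-bearing endothelial cells. The endothelial values hardly varied, from 8.70 to 9.15 over 6 arrays, and none overlapped with an osteoblast value. Endothelial cells were higher by 3.25 ± 0.42 (9.53-fold; limma, adjusted p = 0.000318) without tumor and by 2.57 ± 0.42 (5.92-fold; limma, adjusted p = 0.0016) with tumor. Its tumor difference was -0.13 ± 0.42 in endothelial cells, with a 95% interval of -1.05 to 0.78, and 0.55 ± 0.42 in osteoblasts, with an interval of -0.36 to 1.47. Neither passed (limma, adjusted p = 0.999 and 0.426). These intervals rest on the pooled spread. The SD of Abcg2 was 0.83 and 0.75 in tumor-free and tumor-bearing osteoblasts, against 0.02 and 0.25 in tumor-free and tumor-bearing endothelial cells.

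Abcc4, an exporter of cyclic nucleotides, prostaglandins and drugs, had the same orientation at a smaller size. It stood at 5.80, 5.92 and 5.70 in tumor-free osteoblasts, 6.06, 6.06 and 5.99 in tumor-bearing osteoblasts, 6.71, 6.73 and 6.42 in tumor-free endothelial cells and 6.91, 6.49 and 7.12 in tumor-bearing endothelial cells. No endothelial value overlapped with an osteoblast value in either condition. The differences were 0.81 ± 0.17 (1.75-fold; limma, adjusted p = 0.00675) and 0.80 ± 0.17 (1.74-fold; limma, adjusted p = 0.00925) without and with tumor.

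The broad exporter Abcc1 did not separate the groups, with 5.81, 5.80 and 5.43 in tumor-free osteoblasts, 5.60, 5.86 and 5.81 in tumor-bearing osteoblasts, 5.69, 5.67 and 6.36 in tumor-free endothelial cells and 5.68, 5.83 and 5.76 in tumor-bearing endothelial cells. Its difference between cell types had a 95% interval of -0.21 to 0.66 without tumor and -0.44 to 0.44 with tumor. Abcc5, an exporter of nucleotide analogs, stood at 5.88, 5.90 and 6.22 in tumor-free osteoblasts, 6.63, 6.39 and 6.05 in tumor-bearing osteoblasts, 6.36, 6.33 and 6.49 in tumor-free endothelial cells and 6.05, 5.95 and 6.12 in tumor-bearing endothelial cells. The tumor-free endothelial values all exceeded the tumor-bearing ones, and in osteoblasts 1 tumor-free value lay within the tumor-bearing range. None of its comparisons passed, and the difference of its tumor differences was -0.71 ± 0.24 (limma, adjusted p = 0.205). Abcc10, a pump of lipophilic drugs, was lower in endothelial cells than in osteoblasts without tumor, at 5.20, 5.23 and 5.20 against 5.67, 5.53 and 5.62, a difference of -0.40 ± 0.12 (limma, adjusted p = 0.0322). Its groups did not overlap, yet the call was lost without replicate 1 or 3 of tumor-free osteoblasts or replicate 1, 2 or 3 of tumor-free endothelial cells (limma, adjusted p up to 0.0858), and with arrays centred on their medians the difference was -0.25 (limma, adjusted p = 0.117). With tumor Abcc10 stood at 5.24, 5.21 and 5.17 in endothelial cells and 5.20, 5.28 and 5.46 in osteoblasts, and these groups overlapped. Abcc2, the apical exporter of liver and kidney, was not tested (4.23 to 4.81).

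Abcc3, an exporter of glucuronide conjugates, varied widely among tumor-free osteoblasts. It stood at 5.17, 7.34 and 6.27 in tumor-free osteoblasts, 5.01, 5.02 and 4.86 in tumor-bearing osteoblasts, 5.36, 5.83 and 5.88 in tumor-free endothelial cells and 5.39, 5.55 and 4.69 in tumor-bearing endothelial cells. All 3 tumor-free osteoblast values lay above the tumor-bearing ones, by very different amounts, and the difference was -1.30 ± 0.44 (limma, adjusted p = 0.111), which missed the threshold. With replicate 1 of tumor-free osteoblasts left out it was -1.84 (limma, adjusted p = 0.0062) and passed, while without replicate 2 it was -0.76 (limma, adjusted p = 0.193) and with replicates 2 and 3 of both tumor-free groups left out it was -0.21 (limma, adjusted p = 0.738). Replicate 1 was the lowest of its group in monocyte and macrophage markers, whose mean was 5.21, 8.93 and 8.67 on the tumor-free and 7.52, 7.05 and 5.15 on the tumor-bearing osteoblast arrays. Abcg3, a rodent gene related to Abcg2 that was too dim to be tested, was also lowest on that array, at 3.45, 5.69 and 6.36 and 4.73, 3.47 and 3.35 on these arrays and 3.33 to 3.60 on the endothelial ones. Tumor-free osteoblast replicate 1 was also lowest of its group in the osteoblast, fibroblast and reticular, neutrophil, pan-hematopoietic, erythroid, megakaryocyte, osteoclast and adipocyte lists. It was highest in the chondrocyte and immediate early lists. The part of other cells in the Abcc3 and Abcg3 values was not tested.

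Of the 9 efflux pumps, 8 were tested, and the count of calls by comparison was 0 in the osteoblast tumor comparison, 1 in the endothelial one, 4 between cell types without tumor (3 higher in endothelial cells) and 4 with tumor (all higher in endothelial cells). The shares of all tested genes in the same order were 4.59%, 0.0241%, 31% and 14.9%. Abcb1b is 1 of the calls in the endothelial tumor comparison and with tumor, and it was tested only through the group in which it was high, so the counts are a description. Their median difference between cell types was 0.31 without and 0.52 with tumor, beside 0.03 and 0.000251 over all tested genes.

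The 11 cholesterol and phospholipid transporters, of which 6 were tested, gave 2 calls between cell types without tumor, 1 in each direction, and 3 with tumor, all higher in endothelial cells, beside 31% and 14.9% of all tested genes. Their median difference was 0.20 and 0.42, and limma called 0 of the 6 in either tumor comparison, also at an unadjusted p under 0.05. Abca1, which loads cholesterol onto apolipoprotein A-I, stood at 5.57, 8.09 and 6.99 in tumor-free osteoblasts, 7.19, 7.18 and 6.32 in tumor-bearing osteoblasts, 8.56, 8.44 and 8.55 in tumor-free endothelial cells and 8.78, 8.68 and 8.87 in tumor-bearing endothelial cells. Every endothelial array lay above every osteoblast array, and the tumor-free osteoblasts spread widely. Endothelial cells were higher by 1.63 ± 0.49 (3.10-fold; limma, adjusted p = 0.0293) without tumor and 1.88 ± 0.49 (3.68-fold; limma, adjusted p = 0.0241) with tumor. Both calls were sensitive to single arrays. The tumor-free one was lost without replicate 3 of tumor-free osteoblasts or replicate 1, 2 or 3 of tumor-free endothelial cells (limma, adjusted p up to 0.0744), and without tumor-free osteoblast replicate 1 the difference was 0.98, against 2.24 without replicate 2. The tumor-bearing one was lost without replicate 2 or 3 of tumor-bearing osteoblasts or replicate 1, 2 or 3 of tumor-bearing endothelial cells (limma, adjusted p up to 0.0963).

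Abcg1, which passes cholesterol to high-density lipoprotein, stood at 6.04, 6.78 and 6.85 in tumor-free osteoblasts, 5.90, 6.43 and 6.16 in tumor-bearing osteoblasts, 7.08, 7.41 and 6.85 in tumor-free endothelial cells and 6.88, 7.33 and 7.24 in tumor-bearing endothelial cells. With tumor the endothelial values lay above the osteoblast values, a difference of 0.98 ± 0.25 (1.98-fold; limma, adjusted p = 0.0212), whereas without tumor it was 0.56 ± 0.25 (limma, adjusted p = 0.108), with replicate 3 of the endothelial cells equal to the osteoblast maximum at 2 decimals. Abcg1 lost the call without replicate 1 or 3 of tumor-bearing osteoblasts or replicate 2 or 3 of tumor-bearing endothelial cells (limma, adjusted p up to 0.0798). Abca3, a phospholipid transporter of lamellar bodies in the lung, stood at 5.65, 6.27 and 5.77 in tumor-free osteoblasts, 5.87, 5.46 and 6.25 in tumor-bearing osteoblasts, 6.25, 6.39 and 6.65 in tumor-free endothelial cells and 6.53, 6.83 and 6.70 in tumor-bearing endothelial cells. It too was higher in endothelial cells with tumor, by 0.83 ± 0.23 (1.77-fold; limma, adjusted p = 0.0313). That call was lost without replicate 1 or 2 of tumor-bearing osteoblasts or replicate 1, 2 or 3 of tumor-bearing endothelial cells (limma, adjusted p up to 0.129). Whether the cell type differences of Abcg1 and Abca3 differ between conditions did not pass its own test, with differences of 0.43 ± 0.35 and 0.29 ± 0.32 (limma, adjusted p = 0.557 and 0.661).

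Abcg4, a relative of Abcg1 known mainly from the brain, was lower in endothelial cells without tumor. It stood at 5.73, 5.84 and 5.75 in tumor-free osteoblasts, 5.57, 5.51 and 5.70 in tumor-bearing osteoblasts, 5.49, 5.08 and 5.39 in tumor-free endothelial cells and 5.65, 5.51 and 5.36 in tumor-bearing endothelial cells. The difference of -0.45 ± 0.15 passed (limma, adjusted p = 0.0405) but was lost without replicate 2 of tumor-bearing osteoblasts, replicate 1, 2 or 3 of tumor-free osteoblasts, replicate 1 or 2 of tumor-bearing endothelial cells or replicate 2 or 3 of tumor-free endothelial cells (limma, adjusted p up to 0.147). With arrays centred on their medians it was -0.30 (limma, adjusted p = 0.125). Abca2 and Abca7 passed in no comparison, and the sterol exporters Abcg5 and Abcg8 of liver and gut were not tested (4.25 to 5.11 and 4.46 to 5.14). The retinal transporter Abca4, Abca12 of skin and Abcb4 were not tested either.

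Abca8a was brighter in osteoblasts. It belongs to a run of lipid transporters on chromosome 11 (Abca8b, Abca8a, Abca9, Abca6 and Abca5) with no other protein-coding gene between them. Abca8a stood at 4.36, 5.92 and 5.65 in tumor-free osteoblasts, 7.57, 6.07 and 5.45 in tumor-bearing osteoblasts, 3.97, 3.69 and 3.56 in tumor-free endothelial cells and 4.30, 4.17 and 4.40 in tumor-bearing endothelial cells. Osteoblast values exceeded endothelial values in both conditions, and they varied by over 2 log2 units among tumor-bearing osteoblasts. The endothelial minus osteoblast difference was -1.57 ± 0.50 (limma, adjusted p = 0.0359) without tumor and -2.07 ± 0.50 (limma, adjusted p = 0.0159) with tumor. The tumor-free call was lost without replicate 2 or 3 of tumor-free osteoblasts, replicate 1 of tumor-bearing endothelial cells or replicate 1, 2 or 3 of tumor-free endothelial cells (limma, adjusted p up to 0.0963). It was also lost with a replicate block, quantile normalization, centred arrays, weights per group or only the compared groups. Without replicates 2 and 3 of both tumor-free groups the difference was -0.39. With tumor the call was lost without replicate 1 or 2 of tumor-bearing endothelial cells (limma, adjusted p up to 0.0549), and the difference was -1.47 without tumor-bearing osteoblast replicate 1.

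Its neighbour Abca9 stood at 4.63, 6.00 and 5.83 in tumor-free osteoblasts, 7.02, 6.64 and 4.64 in tumor-bearing osteoblasts, 4.48, 4.25 and 4.19 in tumor-free endothelial cells and 4.40, 4.55 and 4.23 in tumor-bearing endothelial cells. The osteoblast values were again the higher ones, but the differences of -1.18 ± 0.53 and -1.71 ± 0.53 did not pass (limma, adjusted p = 0.111 and 0.0553). Abca8a and Abca9 exceeded their arrays' medians only in osteoblasts, so they too entered the test through the cell type in which they were high, and no fold is given. The mean over 6 fibroblast and reticular markers was 9.01, 10.14 and 9.90 in tumor-free and 10.52, 10.16 and 9.68 in tumor-bearing osteoblasts, which is the order of Abca8a and of Abca9 within each group, against 5.68 to 6.82 in endothelial cells. The osteoblast, monocyte and macrophage, neutrophil and pan-hematopoietic marker means had the same order within both osteoblast groups, so it is not particular to the fibroblast list. The part of any of these cells in the differences of Abca8a and Abca9 was not tested. Abca5, a lysosomal member, passed in no comparison and had its larger tumor difference in osteoblasts, 0.85 ± 0.30 (limma, adjusted p = 0.124). Abca8b, too dim to be tested, was 4.93, 5.57 and 4.37 in tumor-bearing against 3.92, 3.50 and 3.61 in tumor-free osteoblasts, with no overlap. Abca6 ranged from 3.36 to 3.88.

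Abcc9, the sulfonylurea receptor that regulates ATP-sensitive potassium channels of vascular cells, had the largest endothelial difference of the family in both conditions. It stood at 6.21, 8.06 and 7.61 in tumor-free osteoblasts, 7.88, 7.11 and 6.49 in tumor-bearing osteoblasts, 10.52, 10.66 and 10.65 in tumor-free endothelial cells and 10.42, 10.26 and 10.32 in tumor-bearing endothelial cells. The 6 endothelial values lay within 10.26 to 10.66, above every osteoblast value, and the tumor-bearing ones were all below the tumor-free ones. Endothelial cells were higher by 3.32 ± 0.43 (9.98-fold; limma, adjusted p = 0.000358) without tumor and 3.18 ± 0.43 (9.05-fold; limma, adjusted p = 0.000481) with tumor. Its tumor difference was -0.28 ± 0.43 in endothelial cells (95% interval -1.23 to 0.67) and -0.14 ± 0.43 in osteoblasts (interval -1.09 to 0.82). Here too the spread is pooled, with SDs of 0.96 and 0.70 in tumor-free and tumor-bearing osteoblasts against 0.08 in each endothelial group. Kcnj8, the pore subunit that pairs with Abcc9, was higher in endothelial cells by 1.44 ± 0.27 without tumor and 2.47 ± 0.27 with tumor (limma, adjusted p = 0.0032 and 0.000103). In osteoblasts Kcnj8 was 6.56, 7.02 and 7.52 without and 6.06, 5.15 and 5.79 with tumor, and it fell by 1.37 ± 0.27 (limma, adjusted p = 0.0208). Kcnj11, the pore subunit that pairs with Abcc8, had an endothelial minus osteoblast difference of -0.56 ± 0.13 without and 0.02 ± 0.13 with tumor (limma, adjusted p = 0.0115 and 0.953). Both Abcc9 and Kcnj8 are also known in pericytes, and Kcnj8 is 1 of the 8 pericyte and smooth muscle markers, whose mean was 6.68, 6.61 and 6.69 in tumor-free and 8.25, 7.91 and 7.15 in tumor-bearing osteoblasts; the part of pericytes in these values was not tested. Abcc8, the sulfonylurea receptor of pancreatic beta cells, was not tested (4.87 to 5.42).

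Of the 5 transporters of mitochondria and lysosomes, all tested, 1 passed between cell types without tumor, where 31% of all tested genes did. Abcd4, which acts in lysosomal cobalamin export, was 5.59, 5.87 and 5.42 in endothelial cells against 5.90, 6.49 and 6.31 in osteoblasts without tumor. The groups did not overlap, and the difference was -0.60 ± 0.19 (limma, adjusted p = 0.0375). Abcd4 lost this call without replicate 2 or 3 of tumor-free osteoblasts, replicate 1 or 2 of tumor-bearing endothelial cells or replicate 1 or 3 of tumor-free endothelial cells (limma, adjusted p up to 0.124), and with tumor the difference was 0.10 ± 0.19 (limma, adjusted p = 0.833). The Abcd4 values with tumor were 5.90, 6.04 and 6.14 in endothelial cells against 5.99, 5.69 and 6.11 in osteoblasts. Abcb6, Abcb8 and Abcb10 of mitochondria and the lysosomal peptide transporter Abcb9 passed in no comparison. The peroxisomal member Abcd3 stood at 6.58, 7.76 and 5.93 in tumor-free osteoblasts, 7.63, 7.72 and 7.42 in tumor-bearing osteoblasts, 7.51, 6.71 and 7.48 in tumor-free endothelial cells and 6.93, 7.0 and 7.28 in tumor-bearing endothelial cells, with the widest spread again in tumor-free osteoblasts, and passed in none. Its relative Abcd2 was not tested (3.59 to 5.17).

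Of the 4 ABC proteins that are not transporters, 1 passed between cell types without tumor, beside 31% of all tested genes. Abcf3, which acts in translation, stood at 5.06, 7.35 and 5.02 in tumor-free osteoblasts, 7.16, 6.82 and 7.04 in tumor-bearing osteoblasts, 7.07, 7.91 and 7.54 in tumor-free endothelial cells and 7.07, 6.86 and 7.38 in tumor-bearing endothelial cells. Replicates 1 and 3 of tumor-free osteoblasts lay well below every other array, while replicate 2 lay among the rest. The difference between cell types without tumor was 1.70 ± 0.51 (limma, adjusted p = 0.0298), with groups that overlapped. Without tumor-free osteoblast replicate 2 it was 2.47, and the call was lost without replicate 1 or 3 of tumor-free osteoblasts or replicate 2 or 3 of tumor-free endothelial cells (limma, adjusted p up to 0.0979). Abce1, which recycles ribosomes, and Abcf1 and Abcf2 passed in no comparison. Abcc6, which controls ATP release and is linked to mineralization, was the tested member of the remaining 10 and passed in none, at 5.22 to 5.92 over 12 arrays.

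**Figure D2:**
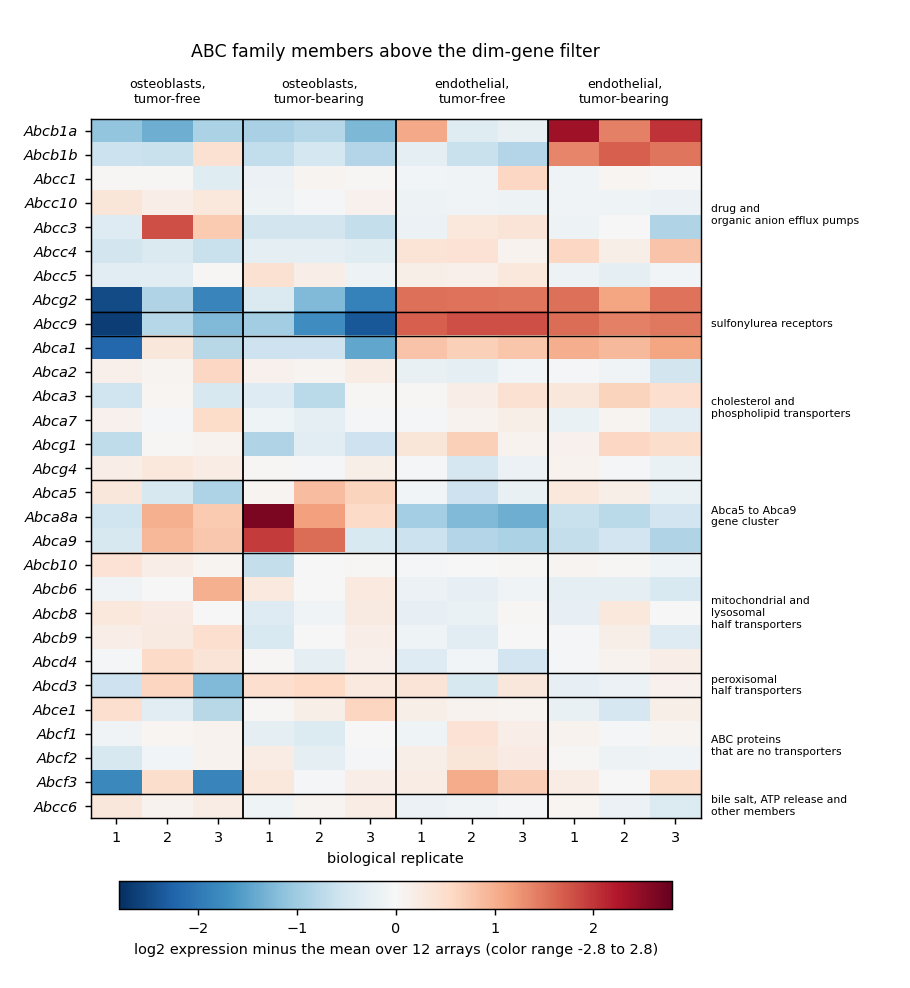
Log2 intensity of the 29 tested members on each of 12 arrays, centred on the gene's mean over the arrays (colour, log2 units), with genes in rows by role and arrays in columns by group. Abcc9, Abcg2, Abca1 and Abcc4 are above their means on all 6 endothelial arrays, Abcb1a is so on 4 of them, and Abcb1b is high on the 3 of tumor-bearing mice.

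Counted over the family, 10 of 29 tested members passed between endothelial cells and osteoblasts without tumor (34.5%), against 31% of all tested genes, so the members' share was near the background. Of these 6 were higher and 4 lower in endothelial cells, where 18.2% and 12.7% of all genes were. With each array centred on its median the split became 9 higher and 0 lower, and with quantile normalization 4 and 1. Abca8a, Abcc10, Abcd4 and Abcg4 kept their negative sign but lost their calls when centred, and centring moved the median of all genes from 0.03 to 0.18. Fitting only the arrays of these groups left 3 calls (Abcc4, Abcc9 and Abcg2). Abca8a, Abca9, Abcb6 and Abcb1b were tested only through the cell type in which they were bright, so these counts are given as a description. With tumor, 9 of 29 passed (31%), 8 higher and 1 lower, against 14.9% of all genes, 8.13% higher and 6.79% lower. With array weights 10 of 29 passed, against 30% of all genes, so there too the share was near the background. The 2 comparisons share no arrays, but their tests use the same pooled spread of a gene, so calls in both are not independent. Over the 29 members the differences in the 2 comparisons had a Pearson r of 0.776 and a Spearman rho of 0.576. This is a description across genes that share arrays. Abca1, Abca8a, Abcb1a, Abcc4, Abcc9 and Abcg2 passed in both in the same direction, which is 60% of the first list and 66.7% of the second. Neither this overlap nor the correlation was computed over all tested genes, so they cannot be read as particular to the family.

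**Figure D3:**
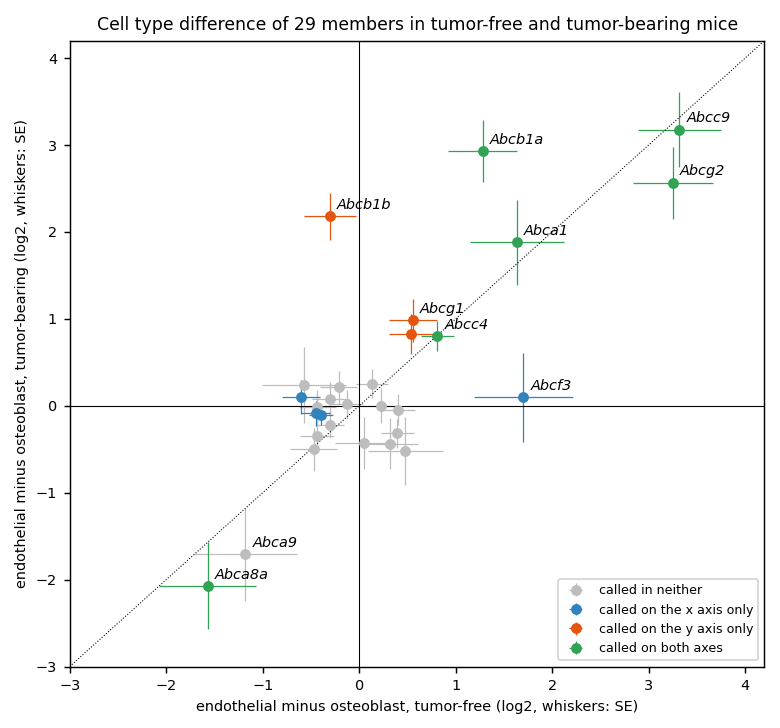
Endothelial minus osteoblast difference (log2) of each of the 29 tested members in tumor-free mice (horizontal axis) and tumor-bearing mice (vertical axis), with whiskers for SE, a dotted line of equal differences and colour for the comparison in which it passed. Abcc9 and Abcg2 lie far out in both, at 3.32 and 3.18 for Abcc9, while Abcb1b is high only on the vertical axis.

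In osteoblasts no member passed between tumor-bearing and tumor-free mice: limma called 0 of 29, against 4.59% of all tested genes (570 genes), with 5 members at an unadjusted p under 0.05. Groups did not overlap for 7 members, against 24.7% of all genes. The median difference of the members was -0.12, beside -0.00136 over all genes. This count depended on single tumor-free arrays, as did the share of all genes. Without replicate 1, 3 members (Abca5, Abcc3 and Abce1) passed, beside 12.7% of all tested genes. Without replicate 2, 2 members (Abcd3 and Abcf3) passed, beside 7.06%. Other measures also differed between the osteoblast groups. The mean over 10 immediate early genes was 9.16, 8.57 and 7.99 without and 9.64, 9.72 and 9.59 with tumor. The mean over 8 chondrocyte markers was 8.49 without and 10.40 with tumor, and all 8 were higher with tumor. Of 8 monocyte and macrophage markers, 7 were lower with tumor. The part of these lists in the osteoblast differences of the members was not tested. In endothelial cells groups did not overlap for 9 members, against 18.8% of all genes. The tumor differences of the 29 members in the 2 cell types, which share no arrays, had a Pearson r of -0.024 and a Spearman rho of -0.071.

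**Figure D4:**
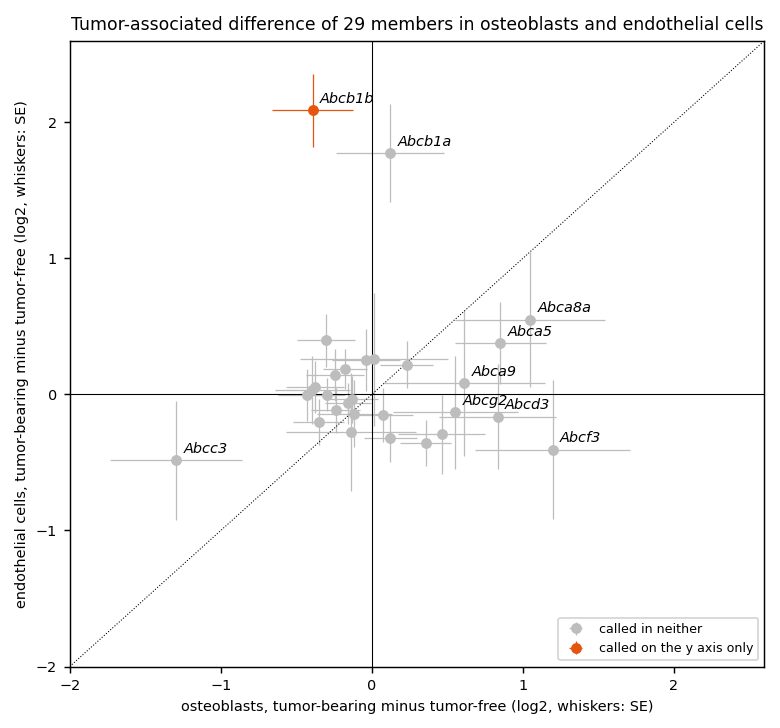
Tumor-bearing minus tumor-free difference (log2) of each of the 29 tested members in osteoblasts (horizontal axis) and endothelial cells (vertical axis), with whiskers for SE, a dotted line of equal differences and colour for members that passed. Abcb1b at 2.09 and Abcb1a at 1.78 stand above the other members on the endothelial axis, none of which exceeds 0.55.

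The 19 members that were not tested were Abca4, Abca6, Abca8b, Abca12 to Abca17, Abcb4, Abcb5, Abcb11, Abcc2, Abcc8, Abcc12, Abcd2, Abcg3, Abcg5 and Abcg8. Of these, 16 never exceeded an array's median and 3 (Abca8b, Abcc8 and Abcg3) did so on 1 or 2 arrays. Many are known from liver, gut, testis or epidermis, such as the bile salt exporter Abcb11. Without tumor, 18 of the 19 were lower in endothelial cells than in osteoblasts, with a median difference of -0.39, but so were dim genes in general, whose median was -0.32 over the 7507 genes not tested.

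Partners of the transporters were counted from lists of genes named by function. Of 18 tested lipid efflux partners, 3 were higher and 1 lower in endothelial cells without tumor, among them the fatty acid receptor Cd36 (6.14 ± 0.57) and Mylip (2.25 ± 0.26), which degrades lipoprotein receptors, as higher genes and the lipoprotein receptor Lrp1 (-2.41 ± 0.31) as the lower one. With tumor 4 were higher and 2 lower. In the tumor comparisons 1 of 18 passed, Nceh1, a cholesteryl ester hydrolase, which fell by 1.23 ± 0.29 in tumor-bearing osteoblasts (limma, adjusted p = 0.0414). Among 13 regulators of efflux pumps, 4 were higher and 1 lower in endothelial cells without tumor and 3 and 1 with tumor. The xenobiotic receptor Ahr was higher by 1.35 ± 0.20 and 1.00 ± 0.20 and the lipid-sensing receptor Pparg by 1.70 ± 0.34 and 2.35 ± 0.34 without and with tumor. In the tumor comparisons limma called 0 of the 13, with 3 and 0 at an unadjusted p under 0.05 in osteoblasts and endothelial cells.

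Of 13 enzymes that make or use conjugates carried by efflux pumps, 3 were higher and 0 lower in endothelial cells without tumor, and 2 higher and 1 lower with tumor, with the sulfotransferase Sult1a1 at 2.15 ± 0.38 and 2.17 ± 0.38. Gss, the glutathione synthetase, rose by 0.77 ± 0.18 in tumor-bearing osteoblasts (limma, adjusted p = 0.0395), and none passed in the endothelial tumor comparison, where limma called 0 of 13 and 3 had an unadjusted p under 0.05. There the subunits of glutamate-cysteine ligase had differences of 1.15 ± 0.49 (Gclc) and 0.70 ± 0.27 (Gclm), with adjusted p of 0.685 and 0.619 in limma. Peptide loading partners gave 2 of 8 higher and 0 lower without tumor, mitochondrial heme and iron genes 0 of 13 higher and 1 lower (Uros), and peroxisomal partners 0 of 8 higher and 1 lower (Acaa1a). With tumor limma called 0 genes of these 3 lists between cell types, with 3, 1 and 2 genes at an unadjusted p under 0.05. In the tumor comparisons they gave 1 call, Cat, the peroxisomal catalase, which fell by 0.85 ± 0.20 in osteoblasts (limma, adjusted p = 0.0392). These shares stand beside 31% and 14.9% of all genes between cell types and 4.59% and 0.0241% in the tumor comparisons. The median difference between cell types without tumor was -0.05 for the lipid efflux partners, 0.46 for the regulators, 0.06 for the conjugating enzymes, 0.33, 0.00297 and -0.27 for the last 3 lists, and 0.03 for all genes.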

How the data were processed

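RNA from 12 sorted samples was extracted with the Pico Pure kit, amplified (SPIA, Ovation Pico WTA) and hybridised after biotin labelling, per the labels' protocols. The authors deposited log2 expression values for 34760 probe sets, and affy is named in the submitters' processing notes; the sources used here give neither its version nor the background correction or normalization. The number of arrays, not a read depth, limits the precision.

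Genes were named from the platform annotation: 21640 probe sets had 1 symbol, 1321 had several and were not used, and 11799 were not listed or had none. Per gene the probe set with the highest mean was kept. Genes above their array's median on at least 3 of 12 arrays were tested (12430 genes) with limma 3.58.1 in R 4.3.3, 1 mean per group, eBayes and Benjamini-Hochberg adjustment over all of them, at a threshold of 0.05. The residual degrees of freedom were 8, with 2.89 from the prior. On simulated arrays the fit called 45% to 54% of genes changed by 1 log2 unit and 83% to 90% of those changed by 2. The simulated spread of a gene was equal in all groups, unlike that of the real arrays. Each simulated comparison held 200 changed genes, and the adjustment is stricter where fewer genes change. These shares therefore do not carry over to the endothelial tumor comparison, in which 3 genes passed.

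Members, gene lists, named genes and alternatives were chosen with earlier results of these data known. Values on every array were printed for 7 efflux pumps, for members past the threshold in a tumor comparison, and for up to 6 members in each direction in each cell type comparison, with single values added for other members. Alternatives were a replicate block, quantile normalization, centring, other filters, an intensity trend, array weights, fewer groups and arrays left out. No 2 of the 12 arrays were identical.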

Additional observations from a re-analysis of the deposited data

Results flagged for a closer look

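Abcb1b differed between cell types in its tumor difference. Tumor-bearing minus tumor-free was 2.09 ± 0.27 (SE, log2, n = 3 and 3) in endothelial cells and -0.39 ± 0.27 in osteoblasts, and the contrast of the 2 in limma was 2.48 ± 0.38 (adjusted p = 0.0329 over 12430 genes). Its 3 tumor-bearing endothelial arrays were 6.00, 6.31 and 6.13, and its other 9 arrays lay between 3.80 and 5.05. The probe set was tested only because of the group in which it was high. Over the settings tried the contrast was 1.84 to 2.80, with adjusted p of 0.00639 to 0.118 in limma.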

How the results depend on the processing

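The comparisons below are named as osteoblast tumor, endothelial tumor, cell types without tumor, cell types with tumor, and the difference of the tumor differences, for which 0, 1, 10, 9 and 1 of 29 members passed as reported. With the replicate block these were 0, 0, 6, 9 and 0, beside 2.81%, 0%, 26.8%, 13.8% and 0% of all tested genes. With quantile normalization they were 0, 0, 5, 8 and 0, beside 4.44%, 0%, 25.7%, 14.1% and 0.113%. Centring the arrays gave 0 members in the endothelial tumor comparison, as did an intensity trend with robust estimation. With no filter 48 members were tested, and the first 3 counts were 2 (Abca8b and Abca13), 0 and 19, beside 4.79%, 0% and 32.9%. With a filter at the 70th percentile 14 members were tested, without Abcb1b. There the counts were 0, 0 and 6 in the first 3, beside 6.51%, 0% and 34.5%, and 0 for the difference, beside 0.138%. Array weights gave 1, 2 and 6 in the first 3, beside 5.3%, 3.61% and 24.4% of all tested genes. Weights per group gave 5 and fitting only the compared groups gave 3 between cell types without tumor, beside 20.3% and 15.4%. With replicate 1 of both tumor-free groups left out the counts were 2, 2 and 5 in the first 3 and 2 for the difference. The shares of all tested genes there were 11.4%, 1.28%, 22.8% and 3.04%. Leaving out 1 array at a time gave 0 to 3, 0 to 2, 4 to 11, 5 to 10 and 0 to 2. The count with tumor was 5 without replicate 2 of tumor-bearing endothelial cells, and that without tumor was 4 without replicate 3 of tumor-free osteoblasts or of tumor-free endothelial cells and 5 without replicate 1 or 2 of the latter. Centring moved the median of all genes in the difference of the tumor differences from -0.05 to -0.15.

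The labels do not say whether same-numbered osteoblast and endothelial samples came from the same mice. Deviations of same-numbered arrays from their group means correlated between -0.26 and 0.108, which with 3 arrays a group cannot settle it. The endothelial difference of Abcb1b was 1.78 to 2.24 and passed in 7 of 23 alternatives, with adjusted p of 0.000845 to 0.752 in limma; with the replicate block it was 0.166. Over 24 member results and 565 recomputed values, 440 kept direction and side of the threshold, 118 lost the call, 7 gained it and 0 turned sign. The differences of Abcg2 and Abcc9 between cell types in both conditions, and those of Abcb1a and Abcc4 with tumor, passed in every alternative run. The 24 results were chosen from these same data. They were those that passed as reported, with Abcb1a in the endothelial tumor comparison and in the difference of the tumor differences and Abcc3 in osteoblasts added. Few could therefore gain a call, and a turned sign was unlikely from the start. The cause of the lost calls was not tested. With 3 arrays a group and wide spread in tumor-free osteoblasts, small differences could not be resolved. Probe sets below the array medians, such as Abcb1b outside tumor-bearing endothelium, give little beyond background.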

Other observations

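ABC proteins whose symbols lie outside the Abc pattern gave no call. The peptide transporter subunits Tap1 and Tap2 had endothelial minus osteoblast differences of 0.80 ± 0.26 and 0.74 ± 0.31 with tumor (SE, log2; limma, adjusted p = 0.059 and 0.154) and 0.40 ± 0.26 and 0.26 ± 0.31 without (limma, adjusted p = 0.242 and 0.522). The chloride channel Cftr was too dim to be tested, at 2.68 to 3.12 over the 12 arrays.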
